A study of Homo sapiens with 4 samples.

Results

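Transcripts of 10 genes that the ERK pathway switches on and that feed back on it were followed after depletion of topoisomerase 2B (TOP2B), a DNA topoisomerase. The genes were taken by symbol from the deposited count table and are DUSP4, DUSP5, DUSP6, SPRY2, SPRY4, SPRED1, ETV4, ETV5, PHLDA1 and IER3. They are 10 of 60725 genes in the table, and all 10 had enough reads to be among the 15356 genes tested. The cells were hTERT-RPE1, a telomerase-immortalized line from human retinal pigment epithelium, and all of them carried the SunTag system. Control cells received a negative control siRNA (Silencer Select Negative Control No. 2, named scramble in the labels), and TOP2B knockdown cells received a pool of siRNAs against TOP2B. Either siRNA was given at 10 nM, again after 48 h, and RNA was taken 72 h after the second transfection, on day 5. Each condition had 2 biological replicates of this 1 line, and polyA RNA was sequenced. The control cells carried another siRNA than the knockdown cells, so an effect of an siRNA sequence and an effect of TOP2B loss cannot be told apart in these libraries.

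In the ERK pathway, a growth factor receptor activates RAS, RAS activates the RAF kinases, these activate MEK, and MEK activates the kinases ERK1 and ERK2. Active ERK phosphorylates transcription factors of the ETS family, and these switch on genes whose products dampen the cascade. The dual-specificity phosphatases of the DUSP family remove the phosphates from ERK or from related kinases, and the Sprouty and Spred proteins act upstream on RAS and RAF. Transcripts of such genes are widely used as a readout of how active the pathway is.

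The libraries held between 20310259 and 23887013 counted reads. Values are given in CPM, that is, reads relative to the TMM-scaled library size, so that 3 reads correspond to 0.125 to 0.149 CPM. TOP2B itself stood at 154.9 and 143.5 CPM in control and at 15.3 and 13.3 CPM in knockdown cells, which left 9.58% of the control level. Of 7 markers of retinal pigment epithelium, MITF and OTX2 had between 252 and 921 reads in every library, while RPE65 and TYR had 0 reads in all 4 libraries and RLBP1 at most 1, so RPE65, a gene of the visual cycle, and TYR, one of pigment synthesis, were not detected at this depth. BEST1 had 16 and 14 reads in control and 16 and 20 in knockdown libraries. PMEL, another pigment gene, had 20 and 7 reads against 31 and 23, and neither passed edgeR's test. The summed level of the 7 markers was 51.9 and 50.4 CPM in control and 58.2 and 59.5 CPM in knockdown cells. That of 6 blood and endothelial markers was 1.88 and 1.93 CPM against 1.04 and 0.893 CPM, with CD3E at 0 reads. Most of this sum came from PECAM1, with 24 and 21 reads in control and 11 and 5 in knockdown libraries, and from VWF. VWF had 15 and 13 reads against 5 and 9, and neither gene passed edgeR's test. PTPRC, CD68 and CDH5 had at most 7 reads in any library. The sum of KRT8, KRT18 and VIM, markers of simple epithelium and of mesenchymal or cultured cells, was 2426 and 2791 CPM in control and 2057 and 2414 CPM in knockdown cells. KRT8 (log2 fold change -0.35) and KRT18 (-0.39) had both knockdown values below both control values without passing the test, and VIM overlapped. Such a lack of overlap was common, with 54.3% of all genes tested in either direction and 26.6% on the lower side. The part of these marker differences in the results was not tested.

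After TOP2B depletion 1 of the 10 feedback genes passed the test. DUSP4, a nuclear phosphatase that acts on ERK and on the related kinases JNK and p38, was the gene called, and it fell to 72.4% of its control level. The other 9 genes did not pass the test, with 6 of the 10 estimates above 0 and 4 below. Of all genes tested, 10.8% were called by the same rule (an adjusted p below 0.05 in edgeR's quasi-likelihood test), 6.66% higher and 4.18% lower, so that 1 of 10 is close to the background. The median log2 fold change of the 10 genes was 0.04, against -0.0029 for all genes tested, and their median absolute change was 0.16, against 0.24 for all genes and 0.20 for those with a mean of at least 100 reads. All 10 estimates lay within 0.5 of 0 on the log2 scale, as did those of 78.8% of all genes tested. In bulk RNA, a change in the share of cells that express a gene and a change in its level per cell cannot be told apart.

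**Figure D1:**
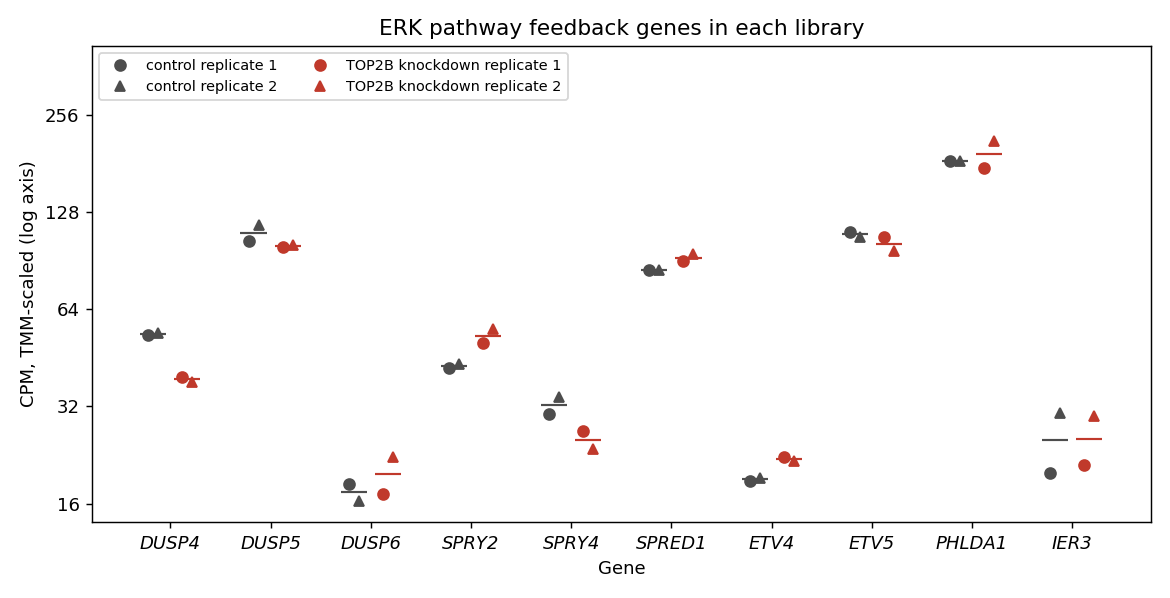
CPM (TMM-scaled, log axis) of the 10 feedback genes in the 2 control and 2 TOP2B knockdown libraries, with a bar at each group mean. The control libraries of DUSP4 lie at 53.3 and 54.0 CPM and the knockdown libraries at 39.5 and 38.2 CPM, while IER3 spreads more between replicates than between conditions.

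The ranges of the conditions were apart for 6 of the 10 genes, DUSP4, DUSP5 and SPRY4 on the lower side and SPRY2, SPRED1 and ETV4 on the higher side. Of all genes tested 54.3% were apart, 27.7% higher and 26.6% lower, so 6 of 10 is again near the background. In DUSP6, ETV5, PHLDA1 and IER3 the ranges overlapped. Counts were simulated from these libraries with 200 changed genes. They were drawn without regard to level from genes above a minimum mean count, so the tested genes of lowest count were left out. A log2 change of 1 was recovered in 84.5% of these genes and one of 0.5 in 2%. In the real data 1665 genes were called, so the adjusted threshold was less strict there than in the simulation. Changes of the size seen here can be missed with 2 replicates, but the simulation does not give the share missed among the 10 genes.

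Of the 3 phosphatases DUSP4 was called, and DUSP5 and DUSP6 did not pass the test. DUSP4 (ENSG00000120875, chromosome 8 of GRCh38 from 29333064 to 29350684, minus strand) had 53.3 and 54.0 CPM in control and 39.5 and 38.2 CPM in knockdown cells. The replicates of either condition lay close together and far from those of the other. This was a log2 fold change of -0.47 (SE 0.12, 95% interval from -0.72 to -0.21, adjusted p = 0.0309 by edgeR's quasi-likelihood test). Fits with only 3 libraries gave between -0.49 and -0.46, but with adjusted p between 0.0923 and 0.142, so that leaving out any one of the 4 libraries ended the call.

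DUSP5 (ENSG00000138166, chromosome 10 from 110497907 to 110511533, plus strand) encodes a nuclear phosphatase that is specific for ERK. It had 104.4 and 117.0 CPM in control and 100.03 and 101.3 CPM in knockdown cells. Both knockdown values lay below both control values, but the gap was smaller than the spread of the control replicates. Its log2 fold change was -0.14 with a 95% interval from -0.41 to 0.13 (p adj = 0.515, same test). The processed copies DUSP5P1 and DUSP5P2, to which reads could be misassigned, held at most 10 reads in any library.

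DUSP6 (ENSG00000139318, chromosome 12 from 89347235 to 89352501, minus strand) encodes the cytoplasmic phosphatase specific for ERK and is one of the most used reporters of the pathway. It had 18.5 and 16.3 CPM in control and 17.2 and 22.4 CPM in knockdown cells. The lower knockdown replicate fell between the control replicates and the other lay above both. The log2 fold change was 0.18 with a 95% interval from -0.18 to 0.55 (p adj = 0.521, same test), and it was -0.03 without TOP2B knockdown replicate 2. The annotated gene ENSG00000274021 shares 28.6% of its exon bases and held at most 3 reads in any library. How reads on shared bases were counted is not given, so this low count does not show that DUSP6 lost no reads.

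Summed over the 3 phosphatases, the level was 176.2 and 187.3 CPM in control and 156.7 and 161.8 CPM in knockdown cells, with means of 181.8 ± 7.85 and 159.3 ± 3.58 CPM (SD, n = 2). The sum of SPRY2, SPRY4 and SPRED1 was apart on the other side, with 157.1 and 162.0 CPM in control and 167.6 and 174.3 CPM in knockdown cells. The shifts of these sums were small, -0.19 for the phosphatases and 0.10 for the Sprouty and Spred genes on the log2 scale. Neither sum stands for all of its genes. The estimate of DUSP6 (0.18) lay against the direction of the phosphatase sum, and that of SPRY4 (-0.35) against that of the Sprouty and Spred sum. Of single genes tested 54.3% were apart, and no such share was computed for sums. ETV4 and ETV5 overlapped when summed, and so did all 10 feedback genes, with 667.9 and 691.4 CPM against 650.7 and 698.02 CPM. With the 7 other MAP kinase phosphatases added to the 3, the sums overlapped, with 390.03 and 435.4 CPM against 373.3 and 417.05 CPM.

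Among the Sprouty and Spred genes, the estimates for the closest relatives, SPRY2 and SPRY4, lay on opposite sides of 0. SPRY2 (ENSG00000136158, chromosome 13 from 80335976 to 80341126, minus strand), which restrains signalling between the receptor and RAF, had 42.3 and 43.3 CPM in control and 50.4 and 55.8 CPM in knockdown cells. Both knockdown libraries were above both control libraries, with a log2 fold change of 0.31 (SE 0.12). The unadjusted p was 0.0259 and the adjusted p 0.127 (edgeR's quasi-likelihood test), which missed the threshold. The 95% interval, from 0.05 to 0.58, covers the error of this gene alone and not the number of genes tested.

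SPRY4 (ENSG00000187678, chromosome 5 from 142310427 to 142326455, minus strand), a second inhibitor of the same step, had 30.3 and 34.2 CPM in control and 26.8 and 23.7 CPM in knockdown cells. Here both knockdown libraries were below both control libraries. The fitted log2 fold change was -0.35 (SE 0.13) with a 95% interval from -0.65 to -0.06 (p adj = 0.124, same test). SPRED1 (ENSG00000166068, chromosome 15 from 38252836 to 38357249, plus strand) encodes a protein that brings neurofibromin, a RAS inactivator, to the membrane. It had 84.6 and 84.5 CPM in control and 90.4 and 94.9 CPM in knockdown cells, a log2 fold change of 0.13 with a 95% interval from -0.12 to 0.39 (p adj = 0.512, same test). The control replicates were almost equal, and both knockdown replicates lay above them by a small margin.

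The ETS factors ETV4 and ETV5 belong to the PEA3 subfamily and carry the signal of ERK to promoters. ETV4 (ENSG00000175832, chromosome 17 from 43527844 to 43579620, minus strand) had 18.8 and 19.2 CPM in control and 22.4 and 21.6 CPM in knockdown cells. The groups did not overlap, and the log2 fold change was 0.21 with a 95% interval from -0.08 to 0.50 (p adj = 0.344, same test). A share of 1.93% of its exon bases lies in exons of DHX8, which had between 1747 and 2467 reads per library. ETV5 (ENSG00000244405, chromosome 3 from 186046314 to 186110318, minus strand) had 111.2 and 107.4 CPM in control and 107.4 and 97.3 CPM in knockdown cells. One knockdown replicate matched the lower control replicate and the other was below it, with a log2 fold change of -0.09 and a 95% interval from -0.36 to 0.17 (p adj = 0.667, same test).

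PHLDA1 and IER3 are induced rapidly by growth factors. PHLDA1 (ENSG00000139289, chromosome 12 from 76025447 to 76031776, minus strand) encodes a protein with a pleckstrin homology-like domain. It had 184.6 and 185.02 CPM in control and 175.6 and 213.04 CPM in knockdown cells, so that the knockdown replicates lay on either side of the control replicates. With this spread the log2 fold change was 0.07 with a 95% interval from -0.23 to 0.38 (p adj = 0.787, same test), and it was -0.09 without TOP2B knockdown replicate 2.

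IER3 (ENSG00000137331, chromosome 6 from 30743199 to 30744548, minus strand) encodes a survival factor that ERK also phosphorylates. It had 20.0 and 30.5 CPM in control and 21.0 and 29.9 CPM in knockdown cells. Replicate 2 was 1.53 times replicate 1 in control and 1.42 times in knockdown cells, while the conditions differed by a log2 fold change of 0.01 with a 95% interval from -0.47 to 0.50 (p adj = 0.979, same test). Its interval is the widest of the 10 genes, and without one library the estimate ran from -0.28 (without TOP2B knockdown replicate 2) to 0.35 (without control replicate 2). The genes HCG20 and IER3-AS1 share 38.9% of its exon bases and had at most 5 reads each, which does not show that IER3 lost no reads on the shared bases.

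**Figure D2:**
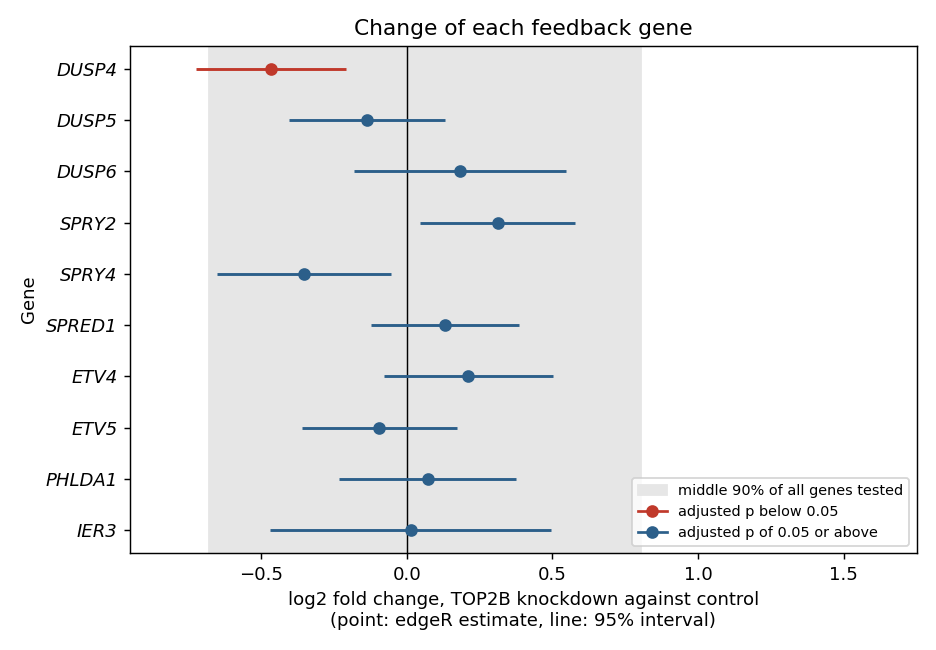
The log2 fold change of each feedback gene (point, edgeR estimate; line, 95% interval), with the middle 90% of all genes tested shaded from -0.68 to 0.80. DUSP4 at -0.47 is the only gene with an adjusted p below 0.05, and the intervals of SPRY2 and SPRY4 lie on opposite sides of 0.

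A ratio of 2 genes within a library does not depend on how the libraries are scaled. There were 2.00 and 1.95 reads of SPRED1 per read of SPRY2 in control libraries and 1.79 and 1.70 in knockdown libraries. SPRY2 had 1.39 and 1.27 reads per read of SPRY4 in control and 1.88 and 2.36 in knockdown libraries, which gave the widest shift of the 7 ratios examined, 0.66 on the log2 scale. DUSP6 had 0.346 and 0.302 reads per read of DUSP4 in control and 0.434 and 0.586 in knockdown libraries, a shift of 0.64. Both knockdown libraries thus held more SPRY2 per SPRY4, and more DUSP6 per DUSP4, than either control library.

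ETV5 had 5.91 and 5.60 reads per read of ETV4 in control and 4.80 and 4.50 in knockdown libraries, a shift of -0.31. The groups did not overlap in 6 of the 7 ratios, DUSP6 to DUSP5 being the exception. Over all pairs of genes with a mean of at least 100 reads, 60% were apart in the same way, and the ratios within a family share genes and are not independent. An exact permutation test (two-sided, 2 libraries against 2) gave p = 0.333 for each of the 6, the smallest it can give.

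**Figure D3:**
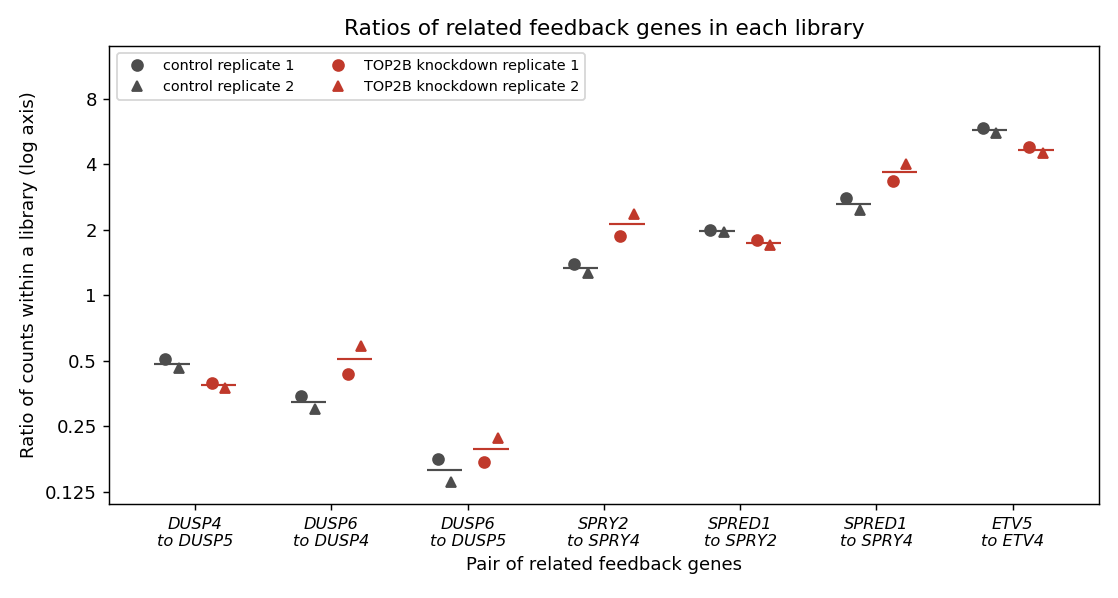
Ratio of the reads of 2 related feedback genes within a library (log axis) for the 2 control and 2 TOP2B knockdown libraries, with a bar at each group mean. SPRY2 to SPRY4 lies at 1.39 and 1.27 in control and at 1.88 and 2.36 in knockdown libraries.

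Levels were compared between genes per length of annotated exon, as RPKM (CPM per kilobase). The length includes exon bases shared with other genes, 28.6% in DUSP6, 38.9% in IER3 and 9.35% in PHLDA1. Reads not counted on such bases would make these levels too low, so the order below holds for this measure only. In control cells DUSP5 was the most abundant with 43.7 ± 3.50 RPKM, followed by PHLDA1 with 31.3 ± 0.056 RPKM (SD, n = 2). ETV5 with 18.9 ± 0.472 and IER3 with 18.7 ± 5.51 RPKM came next, and their ranges overlapped. SPRY2 had 13.3 ± 0.229, SPRED1 10.9 ± 0.0022, DUSP4 7.38 ± 0.066 and ETV4 5.41 ± 0.068 RPKM, each apart from its neighbours in this order. SPRY4 with 4.92 ± 0.416 and DUSP6 with 4.51 ± 0.392 RPKM were the least abundant and overlapped. Among the phosphatases the nuclear DUSP5 was thus far above the cytoplasmic DUSP6 in this line. The level per length of knockdown cells was 5.34 ± 0.132 RPKM for DUSP4, below the 6.26 ± 0.150 RPKM of ETV4, so that these 2 neighbours changed places. SPRY4 with 3.85 ± 0.339 and DUSP6 with 5.12 ± 0.951 RPKM also changed places, with ranges that were apart in knockdown cells, and so did the means of ETV5 (17.7 ± 1.23 RPKM) and IER3 (18.9 ± 4.66 RPKM), whose ranges overlapped in both conditions.

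Sequence around the genes was examined for features that the choice of genes had not used. The sequence windows around transcription starts in RefSeq (GRCh38.p14, 250 bases before to 50 after each start) held 7 windows of 5 of the genes, SPRY2, SPRY4, SPRED1, DUSP6 and PHLDA1. Windows for DUSP4, DUSP5, ETV4, ETV5 and IER3 were not analysed here. Of the 3 SPRY2 windows the one on the canonical start is shown, beside the 1 window of SPRY4, because the estimates of these relatives lay on opposite sides of 0. Capitals mark CCGGAA, a core that ETS factors bind, searched on both strands (TTCCGG on the other).
SPRY2, chr13:80341077-80341376, minus strand: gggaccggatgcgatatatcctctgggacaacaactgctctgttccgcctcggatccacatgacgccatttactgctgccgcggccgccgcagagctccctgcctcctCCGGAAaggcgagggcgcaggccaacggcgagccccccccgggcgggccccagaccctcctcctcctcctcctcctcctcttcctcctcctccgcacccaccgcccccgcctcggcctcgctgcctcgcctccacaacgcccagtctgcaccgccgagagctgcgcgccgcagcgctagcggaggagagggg
SPRY4, chr5:142324198-142324497, minus strand: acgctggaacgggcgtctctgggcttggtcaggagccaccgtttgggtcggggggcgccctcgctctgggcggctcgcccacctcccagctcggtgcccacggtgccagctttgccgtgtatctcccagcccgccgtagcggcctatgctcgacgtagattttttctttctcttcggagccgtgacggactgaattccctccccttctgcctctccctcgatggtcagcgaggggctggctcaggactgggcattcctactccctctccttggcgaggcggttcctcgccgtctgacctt

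The SPRY2 window shown holds 1 copy of CCGGAA at base 109, counted from its 5′ end, and the 2 other SPRY2 windows, 1018 and 1467 bases from the canonical start, hold 0. The SPRY4 window, 774 bases from its canonical start, also holds 0, so that windows away from a canonical start hold 0 in both genes. The windows of PHLDA1, DUSP6 and SPRED1 lie on their canonical starts, and PHLDA1 holds 1 copy while DUSP6 and SPRED1 hold 0. Of all 35116 windows 17.2% hold at least 1. The AP-1 word TGANTCA (in 7.71% of all windows), the cAMP response element TGACGTCA (1.85%) and the CArG box of serum response factor (1.29%) were in 0 of the 7 windows. The letters describe these windows only.

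The word GCAACC was counted in 3′ UTRs because, in these libraries, tested genes that carry it had a higher median change than those without it, 0.06 against -0.04 on the log2 scale over 12517 genes. It was present in 4 of the 10 feedback genes and in 23.4% of all genes tested with a 3′ UTR. The median length of the 3′ UTR was 2172 bases in the 10 genes and 1357 bases in all genes, and longer ones hold more words. The sites of SPRY2 and SPRY4, the pair with estimates on opposite sides of 0, are shown with 10 bases on either side as transcribed, with the word in capitals (GENCODE v44, canonical transcript, GRCh38).
SPRY2, chr13:80336680-80336705, minus strand: atacacatatGCAACCaactaaacag
SPRY4, chr5:142313160-142313185, minus strand: ctgggggcgaGCAACCtcaaggaaca

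SPRY2 carries the word at base 63 of a 3′ UTR of 782 bases, and SPRY4 at base 1034 of 3779 bases, so that of these relatives with estimates of 0.31 and -0.35 both hold 1 copy. DUSP4, the gene called lower, holds 0 copies in 3962 bases. The 4 genes with the word had a median log2 fold change of 0.10 and the 6 without it -0.04. The word was chosen by the changes in these same libraries, so this split is no independent result. Its part in the changes was not tested.

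The other genes of the pathway were taken from lists fixed with earlier results of these data known. Of 59 genes in 8 lists all were tested, 4 were called higher and 4 lower, and 51 did not pass, with a median log2 fold change of -0.03. These 8 of 59 are near the background of 10.8% of all genes tested, or 13.1% of those with a mean of at least 100 reads. Of the 7 other MAP kinase phosphatases, DUSP8, which acts on JNK and p38, was lower and DUSP9, a cytoplasmic ERK phosphatase, was higher. DUSP8 had 11.5 and 13.9 CPM in control and 6.04 and 4.86 CPM in knockdown cells (log2 fold change -1.22, SE 0.19, adjusted p = 0.00388 by edgeR's quasi-likelihood test). DUSP9 had 22 and 24 reads in control and 46 and 52 reads in knockdown libraries (log2 fold change 1.26, SE 0.30, p adj = 0.0258, same test), and it missed the threshold with DESeq2 (p adj = 0.0894). Both estimates lay farther from 0 than that of any of the 10 feedback genes.

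Of the 4 other Sprouty and Spred genes, SPRED3 fell from 39.1 and 40.4 CPM to 28.5 and 27.4 CPM (log2 fold change -0.51, p adj = 0.0254, same test). Among the 8 other ETS factors, ETV1, the remaining PEA3 member beside ETV4 and ETV5, fell from 66.1 and 65.4 CPM to 45.2 and 43.5 CPM (log2 fold change -0.57, p adj = 0.0135, same test). ETS2, which ERK phosphorylates, rose from 47.2 and 43.6 CPM to 63.0 and 62.3 CPM (log2 fold change 0.47, p adj = 0.0323, same test). The 4 other PHLDA and IER genes all had estimates below 0, between -0.31 and -0.13, and 0 passed edgeR's test (0 at an unadjusted p below 0.05 and 0 with DESeq2), the smallest adjusted p being 0.231.

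In the cascade itself 16 of 17 genes did not pass, with estimates from -0.48 to 0.37. The exception was NRAS, one of the RAS GTPases, which fell from 51.02 and 56.02 CPM to 35.9 and 40.7 CPM (log2 fold change -0.48, p adj = 0.0373, same test). Of 5 other inhibitors of the cascade 0 were called by edgeR (1 at an unadjusted p below 0.05, 0 with DESeq2), with estimates from -0.14 to 0.29. Of the 5 kinases activated by ERK, RPS6KA1, which encodes RSK1, rose from 18.7 and 24.1 CPM to 30.8 and 33.3 CPM (log2 fold change 0.58, p adj = 0.0351, same test). RPS6KA5, which encodes MSK1, rose from 30 and 28 reads to 90 and 105 reads (log2 fold change 1.92, SE 0.26, p adj = 0.00216, same test). Of 9 other genes induced by ERK, which include CCND1, MYC and FOSL1, 0 were called by edgeR (2 at an unadjusted p below 0.05), with a median of 0.16 and estimates from -0.50 to 1.24. DESeq2 called 1 of them, the cyclin D1 gene CCND1 (log2 fold change 0.48, adjusted p = 0.0282, against 0.106 with edgeR), named here because it was the single call. In fits without one library, DUSP8 and RPS6KA5 passed in all 4, and SPRED3 and ETS2 in none (adjusted p from 0.0526 to 0.106 and from 0.0678 to 0.216). ETV1 missed without TOP2B knockdown replicate 2 (0.0546). DUSP9 missed when TOP2B knockdown replicate 2 (0.0912) or control replicate 1 (0.0723) was left out, and so did RPS6KA1 (0.0930 and 0.196). NRAS missed when TOP2B knockdown replicate 1 (0.255) or control replicate 2 (0.187) was left out.

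**Figure D4:**
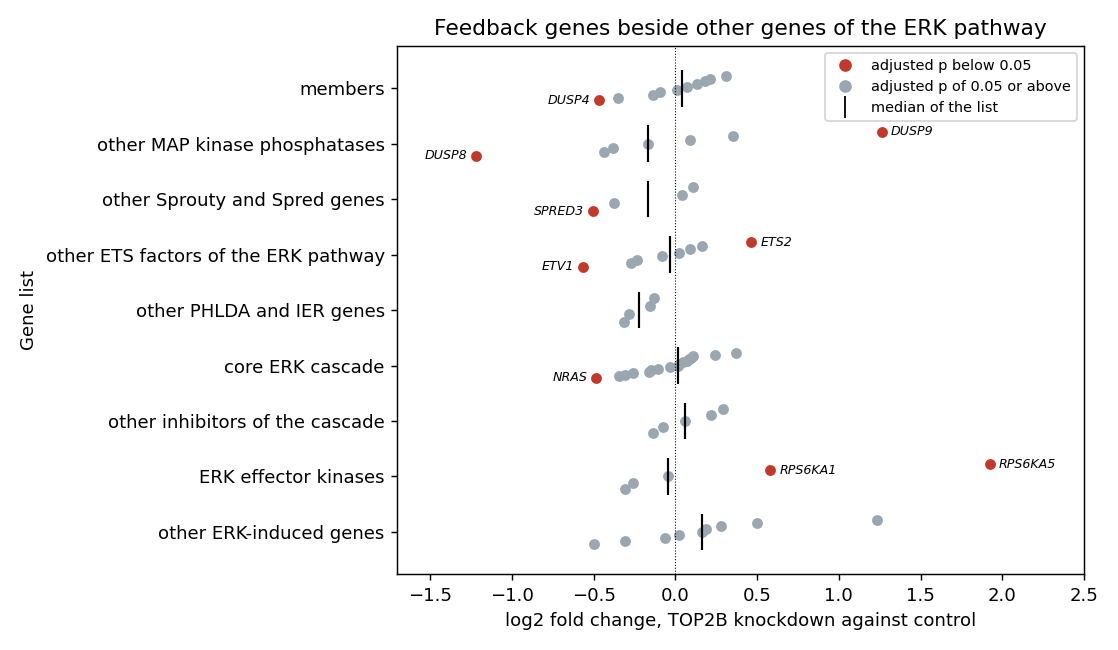
The log2 fold change of every tested gene in the 10 feedback genes (members) and in 8 other lists of the ERK pathway, with a bar at the median of each list. The 10 feedback genes lie between -0.47 and 0.31, and the called genes farthest from 0 are RPS6KA5 at 1.92, DUSP9 at 1.26 and DUSP8 at -1.22.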

How the data were processed

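RNA-seq of 2 control and 2 TOP2B knockdown libraries (single-end reads of 65 bases, TruSeq RNA kit) was analysed. The authors checked the reads with FastQC 0.11.6, aligned them to GRCh38 with STAR 2.5.4a and counted reads per gene while mapping, with Gencode v24. The deposited values are raw counts. The column names of the table call the libraries stranded and paired-end, which the stated kit and read layout do not, and whether reads were counted by strand is not given in the sources used here. The table holds 4 further columns that repeat the names and values of the 4 used, and these were not used.

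Testing was limited to genes that reached 10 counts in 2 or more libraries and used edgeR 4.0.16 (glmQLFit, glmQLFTest, TMM, condition as the only term) in R 4.3.3, with Benjamini-Hochberg adjustment over all 15356 genes and a threshold of 0.05. Intervals at 95% use the quasi-likelihood error of the fold change and cover these libraries only. Symbols were matched for 93.1% of identifiers. Exon lengths, overlaps and 3′ UTRs came from GENCODE v44. As alternatives, the size factors of DESeq2 1.42.0, its Wald test, total counts without normalization factors, no filter, a mean of at least 100 counts, the replicate number as a block and fits without each library were tried. Named by a fixed rule were all 10 genes, TOP2B and each called gene of the pathway lists. CCND1, EGR1, DUSP1 and FOS were named outside this rule with their values known, and MYC and FOSL1 only as examples of their list. Marker genes were named as a check of the cells. The genes, the lists and the 3′ UTR word were chosen with earlier results of these data known. With 2 libraries against 2, an exact permutation test cannot go below p = 0.333. Some 3′ UTR sites are not reported here. The fit was tested on simulated data.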

Additional observations from a re-analysis of the deposited data

How the results depend on the processing

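The signs of DUSP4, DUSP5, SPRY2, SPRY4, SPRED1, ETV4 and ETV5 (7 of 10) were the same in all 10 alternatives. IER3 was -0.0044 with DESeq2, and without one library DUSP6 ran from -0.0326 to 0.368, PHLDA1 from -0.0886 to 0.210 and IER3 from -0.28 to 0.35. In the 5 changes of scaling, filter or tool 1 of the 10 genes was called, DUSP4, with an adjusted p from 0.0196 to 0.0347. In fits with 3 libraries, in which the lone sample is assumed to vary like the other condition, 0 of the 10 genes were called by edgeR (1 to 3 at an unadjusted p below 0.05), their median log2 fold change ran from -0.0644 to 0.181, 3 to 9 of the 59 pathway genes were called, and the fold change of TOP2B ran from -3.48 to -3.30. In the 5 other changes that median moved by less than the spread between replicates. With the replicate number as a block, 6 of the 10 genes passed (DUSP4, DUSP5, SPRY2, SPRY4, SPRED1 and ETV4, 3 higher and 3 lower), but so did 6786 of 15356 genes (44.2%, against 1665 without the block) and 33 of the 59 pathway genes. Same-numbered libraries deviated together (correlation 0.479 across genes), but the replicates are described as independent and there are only 2 numbers, so the pairing is a hint from the data and not from the design. Each of the 10 genes had at least 364 reads in every library.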

Other observations

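Some genes that respond rapidly to growth factors or stress differed more between the replicates than between the conditions. These were picked after their values were seen. EGR1, an early transcription factor, had 7 and 43 reads in the control replicates and 11 and 93 in the knockdown replicates. DUSP1, a phosphatase induced by stress, had 2304 and 3039 reads against 2547 and 3475. IER3 had 478 and 695 reads against 445 and 603. In each of the 3 genes replicate 2 was the higher one in both conditions, and none passed the test between conditions (adjusted p of 0.401 for EGR1, 0.294 for DUSP1 and 0.979 for IER3, edgeR's quasi-likelihood test). FOS, of the same early class, had between 12 and 18 reads in all 4 libraries. Of the 10 feedback genes, the other 9 differed between replicates by at most 1.30 times in either condition.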
